A study of Mus musculus with 11 samples.

Results

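Complex I (NADH:ubiquinone oxidoreductase) is the largest enzyme of the mitochondrial respiratory chain. It takes electrons from NADH, passes them along iron-sulfur clusters to ubiquinone and pumps protons across the inner membrane. Heart muscle, which draws most of its ATP from oxidative phosphorylation, is rich in it. Most subunits are encoded in the nucleus by genes whose symbols begin with Nduf, and the core of the proton pump is encoded on the mitochondrial chromosome. Assembly factors, many of them named Ndufaf, help to build the complex and are not part of the finished enzyme. The genes described here are the 46 protein-coding genes with a symbol beginning with Nduf in the GENCODE annotation of mouse genome build GRCm38, among 55487 identifiers in the deposited count table. They comprise 36 subunits, 8 Ndufaf assembly factors and 2 genes whose products lie outside complex I: Ndufa4, a subunit of complex IV, and its paralogue Ndufa4l2. All 46 passed the low-count filter, and they lie on 17 chromosomes. By their place in the enzyme the subunits were divided into 10 of the NADH-oxidising N module, 6 of the ubiquinone-reducing Q module, 9 of the proximal membrane arm and 11 of the distal membrane arm.

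RNA sequencing was performed on hearts of female C57BL/6NTac mice, an inbred strain, that entered the diet at 8 weeks of age and stayed on it for 24 weeks. The 4 control libraries come from mice on a diet with 10.4% of energy from fat. The 4 obese libraries come from mice fed a diet with 60.3% of energy from fat together with sweetened condensed milk, and given the vehicle, 10% PEG400, by gavage from week 16. The 3 cocktail libraries come from mice on the same obesogenic regimen whose gavage also held dasatinib (5 mg/kg) with quercetin (50 mg/kg), a pair of drugs used to remove senescent cells. No genetic modification is named. The labels do not say whether control mice were gavaged or whether each library is 1 animal, so the p-values reflect only the variation among these libraries. Diet and gavage cannot be told apart if the controls were not gavaged.

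Library totals ran from 52.7 to 103.3 M counts, and the control libraries were the deepest (88.6 ± 12.4, 57.1 ± 6.84 and 68.3 ± 4.04 M, mean ± SD, in the control, obese and cocktail groups). Expression is given as CPM, counts relative to a library size scaled by TMM in edgeR, and n is 4, 4 and 3 libraries throughout. The summed level of 8 cardiomyocyte markers was 29807 to 42908 CPM in control, 23625 to 35729 in obese and 29411 to 35063 in cocktail libraries. Atrial markers summed to 30.7 to 94.0 CPM in controls, 15.5 to 1979 in obese and 43.4 to 5388 in cocktail libraries, with the high values in obese replicate 3 and cocktail replicates 2 and 3. Adipocyte markers summed to 0.255 to 0.499, 0.394 to 8.83 and 0.991 to 10.6 CPM in the same groups, with 4 of 5 tested higher in obese than in control libraries, and the skeletal muscle marker Myh4 was at 0 in every library. The share of counts on the mitochondrial chromosome was 29.9 ± 1.92%, 23.0 ± 1.28% and 20.2 ± 2.28%. The share on genes of the sense-intronic and TEC annotation classes, here called the intronic share, was 0.399 ± 0.139%, 0.732 ± 0.063% and 0.603 ± 0.084%.

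The subunit genes were the abundant members and the assembly factors the scarce ones. Per kilobase of annotated exon, the median control level was 62.0 CPM per kb over the 36 subunits and 6.14 over the 8 assembly factors. Ndufb9, a membrane arm subunit, had the highest control level at 169 ± 21.2 CPM per kb (SD) by this length, and Ndufa1, of the same arm, stood at 142 ± 23.9, with the mean ± SD of both overlapping. Assembly factors ran from 0.880 ± 0.0941 for Ndufaf2 to 9.76 ± 2.43 for Ndufaf1. Every assembly factor lay below every subunit except Ndufb2, which stood at 3.52 ± 0.500 CPM per kb. The exon model of Ndufb2 spans 5628 bases, long beside the median of 1644 over the subunits, so its level per kb depends on that model. Using the longest principal transcript for the length instead gave medians of 105.4 CPM per kb for subunits and 7.44 for assembly factors, and put Ndufa4, at 248.8 ± 52.7 CPM per kb, level with Ndufb9, at 247 ± 31.03.

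The subunits fell together in obese hearts. In obese against control libraries, 31 of 36 subunits passed the test downwards and 0 upwards, where 15.7% of the 23779 genes tested passed downwards and 14.4% upwards (edgeR quasi-likelihood test, Benjamini-Hochberg adjusted p under 0.05). The median log2 fold change over the subunits was -0.73, beside 0.11 over all genes tested, with a range from -1.20 for Ndufa7 to 0.053 for Ndufb2. Every obese library lay below every control library for 18 of 36 subunits, beside 14.7% of all genes. Summed over the subunits, the level was 4400 ± 768 CPM in control, 2722 ± 526 in obese and 3040 ± 436 in cocktail libraries. As a share of all counts, without TMM scaling, the sums were 0.361 ± 0.027%, 0.3003 ± 0.035% and 0.337 ± 0.029%, which is a smaller difference. In bulk tissue, fewer cells that express these genes and less RNA of them per cell cannot be told apart.

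**Figure D1:**
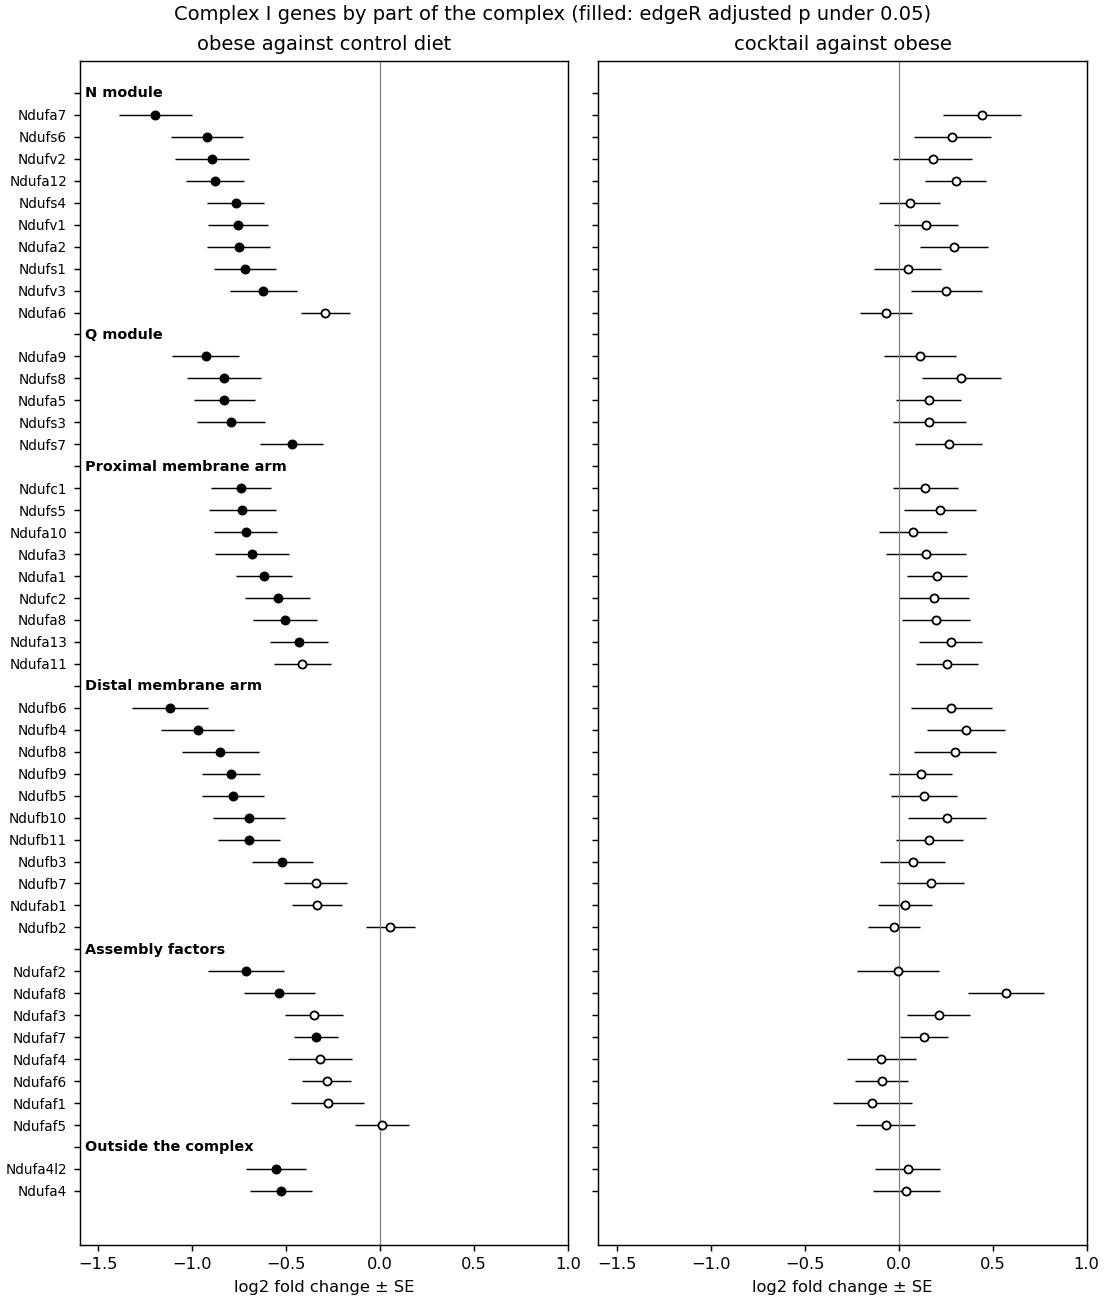
Log2 fold change (x axis, ± SE) of the genes (y axis; 1 subunit is not shown) in obese against control libraries, left, and in cocktail against obese libraries, right, grouped by part of the complex. Filled points passed edgeR's adjusted p of 0.05 under TMM: on the left all filled subunits and assembly factors lie below 0, and on the right no point is filled. Filled genes on the left that lie above 0 in other fits, not drawn, include Ndufaf7 under library totals alone. With the intronic share as a covariate they include Ndufs8 and Ndufaf8.

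The 5 subunits that did not pass were Ndufa11, Ndufb7, Ndufab1, Ndufa6 and Ndufb2, with adjusted p of 0.0576, 0.131, 0.0721, 0.103 and 0.782. With the intronic share of each library as a covariate, 0 of 36 subunits passed and the subunit median was -0.012, while 0.509% of all genes passed. Scaling by library totals alone left 19 subunits lower and 1 higher, with a median of -0.30, and moved the median of all genes from 0.11 to 0.53. The subunit median minus that of all genes was -0.83, -0.83 and -0.82 under TMM, upper-quartile and total scaling. Scaling shifts all genes of a library alike, so it can hardly change this difference. The same difference was -0.68 with protein-coding genes only, -0.73 with a filter of at least 1 CPM in at least 3 libraries, and -0.024 with the covariate.

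A shared ordering of the libraries ran through the whole set. Control replicate 4 was the highest and control replicate 2 the lowest control library for 36 of 36 subunits. Obese replicate 4 was the highest obese library for 35 of 36, and the lowest was replicate 2 for 28 and replicate 3 for 8. Cocktail replicate 3 was the lowest cocktail library for 35 of 36. Relative to the control mean, the median subunit stood at 0.064, -0.39, 0.009 and 0.32 log2 units in control replicates 1 to 4. The same median stood at -0.62, -0.93, -0.87 and -0.41 in obese replicates 1 to 4 and at -0.40, -0.37 and -0.82 in the cocktail libraries. Control replicate 2 and obese replicate 4 were thus almost level, so the groups touch at 1 library on each side. The assembly factors had a narrower spread of library medians, from -0.52 in obese replicate 2 to 0.30 in control replicate 4.

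**Figure D2:**
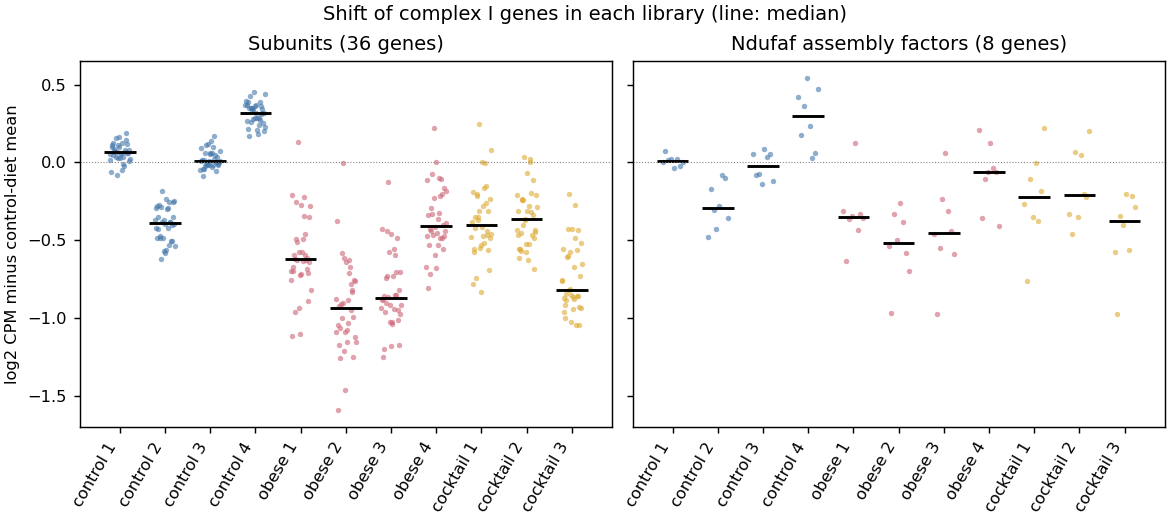
Log2 CPM minus the control-diet mean (y axis) in each of the 11 libraries (x axis) for the 36 subunits, left, and the 8 assembly factors, right; each point is 1 gene and the line is the median. Subunit medians run from -0.93 in obese replicate 2 to 0.32 in control replicate 4, and control replicate 2 at -0.39 sits level with obese replicate 4 at -0.41.

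Measures of the libraries moved with this ordering in part. Control replicate 4 had the lowest intronic share of the 11 libraries, 0.286%, and control replicate 2 the highest of the controls, 0.590%. Obese replicate 4 had the lowest intronic share of the obese libraries, 0.663%, while obese replicates 1 to 3 had 0.746%, 0.706% and 0.811%. Cocktail replicates 1 to 3 had 0.629%, 0.509% and 0.671%, and there, as among the controls, the library with the lowest subunit median had the highest share, which was not so among the obese libraries. The mitochondrial share was highest in control replicate 4, at 32.3%, and lowest in cocktail replicate 3, at 17.8%, whereas the subunit median was lowest in obese replicate 2, where that share was 22.9%. Among the obese libraries the lowest mitochondrial share was in replicate 3, at 21.4%, and the cocktail libraries had lower shares than the obese on average but higher subunit medians. In obese against control libraries the mitochondrial share, the intronic share and the total each gave p = 0.0286 in a two-sided exact permutation test, the smallest that 4 against 4 libraries allow (Benjamini-Hochberg adjusted 0.0858 over 9 tests). The intronic share was the measure fitted as a covariate above. It did not overlap between control and obese libraries, so for that comparison the fit separates it from the group only poorly, through the spread within groups. Between control and cocktail libraries it did overlap, with control replicate 2 at 0.590% and cocktail replicate 2 at 0.509%. In that comparison the subunit median was -0.081 with the covariate and -0.54 without it, and 2.14% and 15.8% of all genes passed. The covariate had 1 slope for all 3 groups in the same fit, so this comparison is no separate check. The part of the intronic share in these differences was not tested otherwise. The part of the mitochondrial share and of depth was not tested. Of the cardiomyocyte markers 4 of 8 passed downwards in obese against control libraries, with overlapping sums. Endothelial markers summed to 699 to 824 CPM in control and 519 to 615 in obese libraries, with 2 of 4 passing downwards. Smooth muscle and pericyte markers summed to 835 to 1031 CPM in control and 559.5 to 662 in obese libraries, with 1 of 3 passing downwards. Schwann cell markers summed to 4.42 to 6.71 CPM in control and 7.02 to 10.9 in obese libraries, with 1 of 2 passing upwards. The part of these cell types in the result was not tested. Without the 3 libraries with the highest atrial markers, the subunit median in obese against control libraries was -0.67, beside 0.11 over all genes tested.

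**Figure D3:**
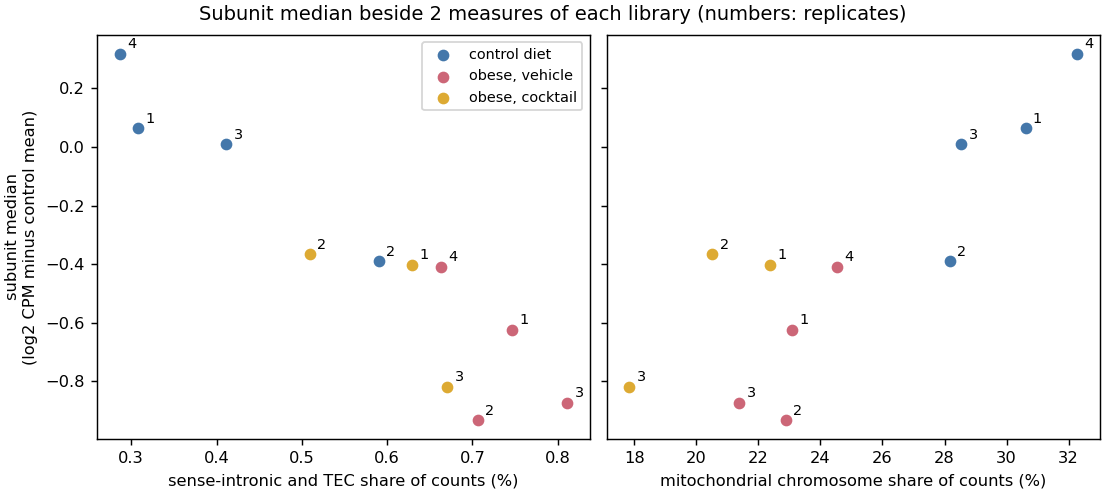
Median subunit level in each library (y axis, log2 CPM minus the control mean) against its intronic share, left, and its mitochondrial chromosome share of counts, right (x axes, percent); numbers are replicates and colours are groups. Control replicate 4, at an intronic share of 0.286%, is highest at 0.32, and control replicate 2, at 0.590%, sits among the obese and cocktail libraries at -0.39.

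The N module binds NADH and starts the electron path. All 10 of its genes lay below 0 in obese libraries (median log2 fold change -0.76). Of these 9 passed downwards, beside 15.7% of all genes tested. Ndufv1, which holds the flavin and the NADH site, gave 333, 260.3, 318 and 354 CPM in control replicates 1 to 4, 204, 150.1, 161 and 234 in obese replicates 1 to 4 and 235, 212 and 175 in the cocktail libraries. All obese values lay below all control values (log2 fold change -0.76 ± 0.16, adjusted p = 0.00425). Ndufs1, the largest subunit of the complex and a carrier of iron-sulfur clusters, gave 561, 428, 505 and 602 CPM in control replicates 1 to 4, 326, 252, 283 and 411 in obese replicates 1 to 4 and 348, 353 and 283 in the cocktail libraries. Its groups were also separate (log2 fold change -0.72 ± 0.16, adjusted p = 0.00629). Ndufv2, which carries an iron-sulfur cluster beside the flavin, gave 109.9, 75.4, 102.9 and 141 CPM in control replicates 1 to 4, 53.7, 43.7, 56.1 and 77.1 in obese replicates 1 to 4 and 62.7, 76.5 and 56.6 in the cocktail libraries. Here obese replicate 4 passed control replicate 2, so the groups overlapped (log2 fold change -0.90 ± 0.20, adjusted p = 0.00546).

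Ndufa7, an accessory subunit of the peripheral arm, had the lowest fold change of all members. It gave 83.0, 55.3, 78.4 and 100.1 CPM in control replicates 1 to 4, 35.7, 25.6, 32.6 and 44.3 in obese replicates 1 to 4 and 45.0, 56.1 and 39.8 in the cocktail libraries. The control mean of 79.2 ± 18.5 CPM (SD) was 2.29-fold that of the obese libraries, 34.5 ± 7.72, with no overlap (log2 fold change -1.20 ± 0.19, adjusted p = 0.00105). Ndufa12, an accessory subunit added late in assembly, gave 125, 93.2, 117 and 156 CPM in control replicates 1 to 4, 71.4, 56.7, 63.0 and 75.7 in obese replicates 1 to 4 and 86.4, 89.3 and 70.9 in the cocktail libraries. Its highest obese value lay below its lowest control value (log2 fold change -0.88 ± 0.15, adjusted p = 0.00143). Ndufs4, an accessory subunit whose loss in mice is used as a model of Leigh syndrome, gave 59.7, 45.4, 54.6 and 75.9 CPM in control replicates 1 to 4, 35.7, 30.5, 31.8 and 40.1 in obese replicates 1 to 4 and 39.4, 37.9 and 30.6 in the cocktail libraries. The separation was complete here too (log2 fold change -0.77 ± 0.15, adjusted p = 0.00284). Ndufa2, with a thioredoxin-like fold, gave 35.3, 26.0, 35.1 and 45.9 CPM in control replicates 1 to 4, 21.5, 19.0, 18.9 and 25.1 in obese replicates 1 to 4 and 26.7, 30.1 and 20.7 in the cocktail libraries. The highest obese value, in replicate 4, lay just under control replicate 2 (log2 fold change -0.75 ± 0.17, adjusted p = 0.00566). Ndufa6, which anchors an acyl carrier protein to the complex, gave 33.4, 28.4, 37.1 and 41.9 CPM in control replicates 1 to 4, 30.1, 26.8, 25.9 and 32.3 in obese replicates 1 to 4 and 30.5, 28.1 and 23.7 in the cocktail libraries. Its obese and control libraries overlapped, and it was the gene of the module that did not pass (log2 fold change -0.29 ± 0.13, adjusted p = 0.103).

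The Q module hands electrons to ubiquinone, and the 5 genes of it described here fell. Ndufs7, the carrier of the last iron-sulfur cluster before ubiquinone, gave 216, 181, 216 and 251 CPM in control replicates 1 to 4, 177, 126, 132 and 189 in obese replicates 1 to 4 and 227, 186 and 149.5 in the cocktail libraries. Obese replicate 4 exceeded control replicate 2, and its p lay close to the threshold (log2 fold change -0.47 ± 0.17, adjusted p = 0.0491). Its call ended without any 1 of control replicates 1, 3 and 4, obese replicates 1, 2 and 3 and cocktail replicate 2 (adjusted p up to 0.128).

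Ndufs8, which carries iron-sulfur clusters ahead of Ndufs7, gave 66.1, 44.9, 68.6 and 88.3 CPM in control replicates 1 to 4, 36.9, 29.2, 34.5 and 49.8 in obese replicates 1 to 4 and 47.3, 53.5 and 41.4 in the cocktail libraries. Obese replicate 4 was the only obese library above a control library (log2 fold change -0.83 ± 0.20, adjusted p = 0.00781). Ndufs3, a core subunit without a cluster, gave 140.5, 101, 133 and 165 CPM in control replicates 1 to 4, 85.2, 61.1, 67.5 and 97.6 in obese replicates 1 to 4 and 94.7, 97.4 and 69.2 in the cocktail libraries. Its groups were separate (log2 fold change -0.79 ± 0.18, adjusted p = 0.00620). Ndufa9, an accessory subunit near the ubiquinone site, gave 198, 144, 181 and 218 CPM in control replicates 1 to 4, 98.5, 76.8, 81.1 and 132 in obese replicates 1 to 4 and 113, 114 and 88.4 in the cocktail libraries. No obese library reached the lowest control library (log2 fold change -0.93 ± 0.18, adjusted p = 0.00257). Ndufa5, an accessory subunit of the same module, gave 32.3, 23.5, 31.0 and 39.3 CPM in control replicates 1 to 4, 19.0, 15.6, 15.4 and 21.1 in obese replicates 1 to 4 and 21.0, 22.1 and 16.3 in the cocktail libraries. Control and obese libraries were again apart (log2 fold change -0.83 ± 0.16, adjusted p = 0.00274).

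In the membrane arm, 9 of 9 proximal genes lay below 0 in obese libraries and 8 passed downwards (median -0.62). Of the 11 distal genes 10 lay below 0 and 8 passed downwards (median -0.70), beside 15.7% of all genes tested. Ndufb6, an accessory subunit of the distal arm, had the next lowest fold change of the subunits. It gave 41.2, 24.5, 38.3 and 47.2 CPM in control replicates 1 to 4, 17.1, 13.3, 16.2 and 23.0 in obese replicates 1 to 4 and 20.6, 24.7 and 18.02 in the cocktail libraries. The control mean of 37.8 ± 9.62 CPM stood 2.17-fold above the obese mean of 17.4 ± 4.05 (log2 fold change -1.12 ± 0.20, adjusted p = 0.00193). Ndufb4, of the same arm, gave 78.7, 49.0, 73.3 and 99.9 CPM in control replicates 1 to 4, 38.1, 31.4, 35.8 and 48.2 in obese replicates 1 to 4 and 49.7, 56.6 and 41.4 in the cocktail libraries. Its obese replicate 4 lay just below control replicate 2 (log2 fold change -0.97 ± 0.19, adjusted p = 0.00327). Ndufb9, a member of the LYR family that binds an acyl carrier protein, gave 179.6, 147, 169 and 199 CPM in control replicates 1 to 4, 116, 81.8, 84.2 and 119 in obese replicates 1 to 4 and 124, 112 and 89.7 in the cocktail libraries. Obese and control libraries did not overlap (log2 fold change -0.79 ± 0.16, adjusted p = 0.00288).

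Ndufab1, the mitochondrial acyl carrier protein, which also serves fatty acid and lipoic acid synthesis outside the complex, gave 72.7, 58.0, 70.6 and 85.0 CPM in control replicates 1 to 4, 59.5, 47.3, 52.2 and 67.4 in obese replicates 1 to 4 and 61.0, 60.1 and 52.6 in the cocktail libraries. Its obese and control libraries overlapped and it did not pass (log2 fold change -0.34 ± 0.13, adjusted p = 0.0721). Ndufa11, which lies where complex I meets complex III in supercomplexes, gave 86.6, 63.1, 90.3 and 103.2 CPM in control replicates 1 to 4, 66.6, 54.7, 57.5 and 78.7 in obese replicates 1 to 4 and 75.3, 85.6 and 69.7 in the cocktail libraries. Obese replicates 1 and 4 exceeded control replicate 2 (log2 fold change -0.41 ± 0.15, adjusted p = 0.0576). Ndufa13, also known as GRIM-19, gave 106, 89.3, 108 and 125 CPM in control replicates 1 to 4, 91.0, 65.1, 70.2 and 91.5 in obese replicates 1 to 4 and 106, 107 and 75.8 in the cocktail libraries. It passed narrowly (log2 fold change -0.43 ± 0.15, adjusted p = 0.0493), and lost its call without any 1 of control replicates 1, 3 and 4, obese replicates 2 and 3 and cocktail replicates 1 and 2 (adjusted p up to 0.132). Ndufb2, a small subunit of the distal arm, was the subunit with a fold change above 0. It gave 18.5, 17.3, 19.5 and 23.8 CPM in control replicates 1 to 4, 21.6, 19.6, 18.01 and 22.9 in obese replicates 1 to 4 and 23.3, 20.1 and 17.1 in the cocktail libraries. Its obese libraries lay inside the control range (log2 fold change 0.053 ± 0.13, adjusted p = 0.782), and its direction turned with the library left out, from -0.031 to 0.14. Exons of Ndufb2 share 146 bases with Braf on the opposite strand, which had a mean of 55.0 CPM. No source used here says whether counting used strand, so the reads of the pair cannot be told apart.

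**Figure D4:**
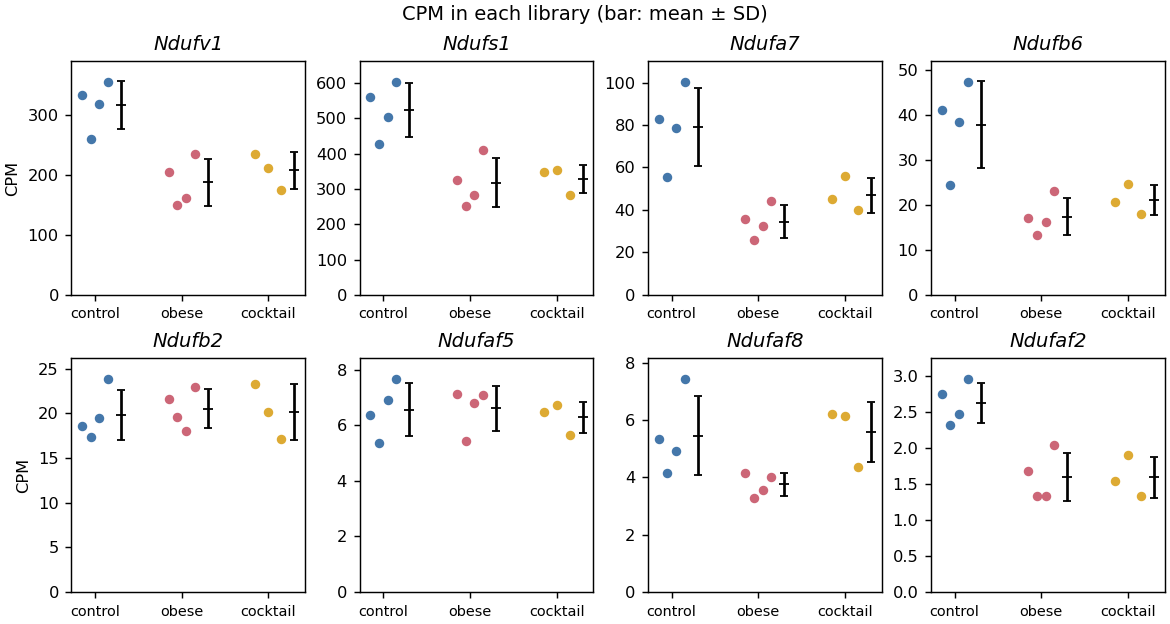
CPM (y axis, from 0) in each library by group (x axis) for 4 subunits that passed downwards in obese libraries (Ndufv1, Ndufs1, Ndufa7, Ndufb6), Ndufb2, which did not, and the assembly factors Ndufaf5, Ndufaf8 and Ndufaf2; each point is 1 library and the bar is the mean ± SD. Ndufa7 has no obese value above 44.3 CPM and no control value below 55.3, while Ndufb2 spans 17.3 to 23.8 in controls and 18.01 to 22.9 in obese libraries.

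A further 15 subunits, with Ndufs6, Ndufb8, Ndufb5 and Ndufc1 among them, all lay below 0 in obese libraries under TMM scaling, from -0.92 for Ndufs6 to -0.34 for Ndufb7, and 14 of them passed. Ndufv3 lost its call without control replicate 4 or obese replicate 2, Ndufb10 without control replicate 4, and Ndufa3 without control replicates 3 or 4 or obese replicates 2 or 3. Ndufb3, Ndufa8 and Ndufc2 lost theirs without any 1 of control replicates 1, 3 and 4 and obese replicates 1, 2 and 3, with adjusted p up to 0.107. In all, 22 of the 31 calls held whichever library was left out. Reads of Ndufs6, Ndufab1, Ndufb4 and Ndufa11 may be split with the processed pseudogenes Ndufs6b, Ndufab1-ps, Ndufb4c and Ndufa11b, so their counts are uncertain. Ndufb1-ps, annotated as non-coding here and so no member, stood at 22.2 ± 6.24 CPM in control and 12.7 ± 2.94 in obese libraries (log2 fold change -0.80 ± 0.22, adjusted p = 0.0157). Across the 36 subunits, the fold change had Spearman's rho of 0.084 with exon length, 0.22 with GC content and -0.062 with mean log2 CPM, given as a description over genes of the same libraries.

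Against the median subunit of the same library, the genes did not all move alike. This measure takes out the ordering that the libraries share, and most other genes lie higher on it in obese libraries: 23% of the genes tested were higher in every obese than in every control library and 1.56% were lower. By that rule 11 subunits were lower, 3 were higher and 22 overlapped. Ndufa7 went from -0.23 ± 0.047 in controls to -0.82 ± 0.091 in obese libraries, and Ndufb6 from -1.31 ± 0.073 in controls to -1.81 ± 0.087 in obese libraries (log2 CPM minus the library's subunit median, ± SD). The other 9 lower subunits were Ndufa9, Ndufs8, Ndufa5 and Ndufs3 of the Q module, Ndufv2 and Ndufa12 of the N module, and Ndufb4, Ndufb8 and Ndufb5 of the distal membrane arm. With Ndufa7 of the N module and Ndufb6 of the distal arm, the set drew on 3 parts of the enzyme. It held 0 of the 9 proximal membrane arm genes. The 3 higher ones were Ndufb2, Ndufb7 and Ndufa11. Ndufb2 went from -2.21 ± 0.21 in controls to -1.55 ± 0.17 in obese libraries. Of the assembly factors Ndufaf1 and Ndufaf5 were higher and 6 overlapped. No test was run on this measure, since the same libraries define the median.

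**Figure D5:**
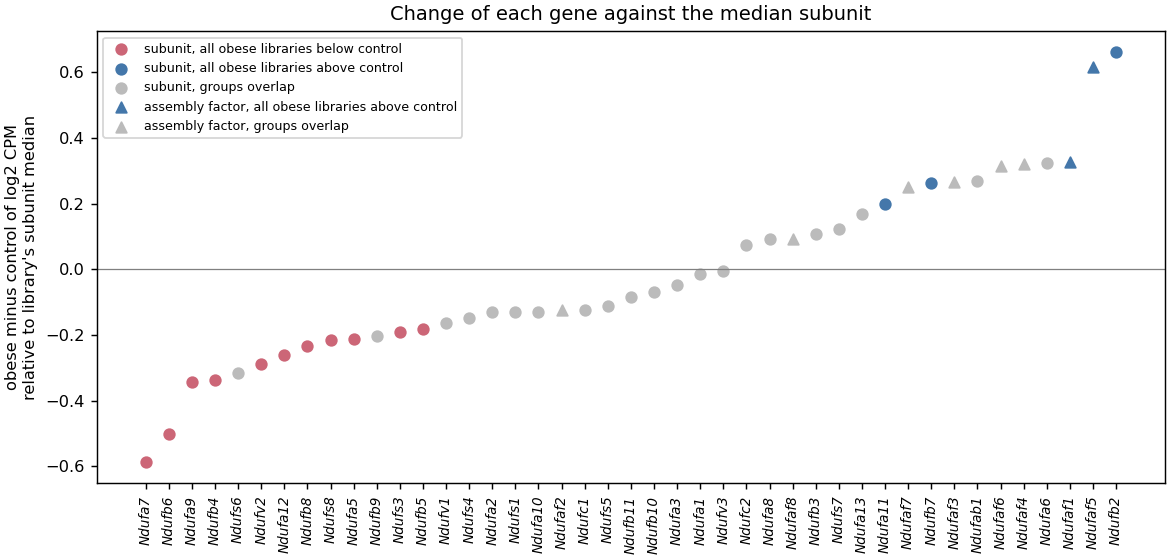
Difference between obese and control means of log2 CPM minus the library's subunit median (y axis) for the subunits, circles, of which 1 is not shown, and 8 assembly factors, triangles (x axis, in order of the difference); colours mark genes whose obese libraries all lie below or all above the control libraries. Ndufa7 is lowest at -0.59 and Ndufb2 highest at 0.66.

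The assembly factors had smaller fold changes than the subunits, though the difference between the sets was not tested. In obese against control libraries 3 of 8 passed downwards and 0 upwards, beside 15.7% and 14.4% of all genes tested. The median log2 fold change was -0.33, with 7 of 8 below 0. Under scaling by library totals alone 2 of 8 were below 0 and none of the 3 calls held. Ndufaf5 passed upwards there (log2 fold change 0.44, edgeR adjusted p = 0.0187), as did 9061 of 23779 genes. The assembly factor median minus that of all genes was -0.44, -0.43 and -0.42 under TMM, upper-quartile and total scaling, a difference that scaling can hardly change. It was -0.285 with protein-coding genes only, -0.335 with a filter of at least 1 CPM in at least 3 libraries, and 0.225 with the intronic share as a covariate. None of the 3 calls held in every fit with 1 library left out, and 0 of 8 passed with the intronic share as a covariate. Ndufaf2, a paralogue of Ndufa12 that occupies its place during assembly, gave 2.75, 2.32, 2.47 and 2.95 CPM in control replicates 1 to 4, 1.68, 1.34, 1.33 and 2.04 in obese replicates 1 to 4 and 1.54, 1.90 and 1.33 in the cocktail libraries. Its groups were separate, and its call ended without obese replicate 2 (adjusted p = 0.0507; all libraries: log2 fold change -0.71 ± 0.20, adjusted p = 0.0178). Ndufaf7, a mitochondrial protein methyltransferase, gave 13.6, 12.9, 14.3 and 14.4 CPM in control replicates 1 to 4, 10.98, 9.20, 10.1 and 13.2 in obese replicates 1 to 4 and 12.1, 11.8 and 11.9 in the cocktail libraries. Obese replicate 4 overlapped the controls (log2 fold change -0.34 ± 0.12, adjusted p = 0.0414). Ndufaf8, the partner of Ndufaf5, gave 5.34, 4.16, 4.91 and 7.41 CPM in control replicates 1 to 4, 4.16, 3.29, 3.55 and 4.02 in obese replicates 1 to 4 and 6.21, 6.13 and 4.37 in the cocktail libraries. Its obese replicate 1 slightly exceeded control replicate 2 (log2 fold change -0.54 ± 0.19, adjusted p = 0.0466). The calls of Ndufaf7 and Ndufaf8 each ended in 8 of 11 fits with 1 library left out, with adjusted p up to 0.115 and 0.147.

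The other 5 assembly factors did not pass. Ndufaf5, which hydroxylates Ndufs7, gave 6.35, 5.35, 6.90 and 7.65 CPM in control replicates 1 to 4, 7.11, 5.42, 6.79 and 7.08 in obese replicates 1 to 4 and 6.48, 6.73 and 5.65 in the cocktail libraries. These groups lay on top of each other (log2 fold change 0.0084 ± 0.14, adjusted p = 0.971), and the direction turned with the library left out, from -0.10 to 0.093. Ndufaf1, which works on the membrane arm with Acad9 and Ecsit, gave 14.3, 10.3, 14.9 and 19.2 CPM in control replicates 1 to 4, 11.5, 9.86, 10.4 and 16.5 in obese replicates 1 to 4 and 11.9, 11.3 and 9.60 in the cocktail libraries. Obese replicate 4 exceeded 3 control libraries (log2 fold change -0.28 ± 0.19, adjusted p = 0.290). Ndufaf3 and Ndufaf4 act together on the Q module. Ndufaf3 gave 11.7, 9.38, 10.98 and 14.9 CPM in control replicates 1 to 4, 8.99, 9.21, 7.89 and 10.8 in obese replicates 1 to 4 and 10.8, 12.1 and 9.11 in the cocktail libraries (log2 fold change -0.35 ± 0.15, adjusted p = 0.101). Ndufaf4 gave 31.1, 22.7, 27.8 and 44.6 CPM in control replicates 1 to 4, 24.1, 21.6, 26.0 and 29.4 in obese replicates 1 to 4 and 24.0, 24.0 and 23.1 in the cocktail libraries, with the groups overlapping for both genes (log2 fold change -0.32 ± 0.17, adjusted p = 0.168). Ndufaf6, needed for early assembly, gave 7.26, 6.77, 7.32 and 7.32 CPM in control replicates 1 to 4, 5.29, 5.49, 5.77 and 6.99 in obese replicates 1 to 4 and 5.52, 6.23 and 4.84 in the cocktail libraries. Obese replicate 4 again overlapped the controls, above control replicate 2 (log2 fold change -0.28 ± 0.13, adjusted p = 0.115).

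The 2 Nduf-named genes outside complex I also fell. Ndufa4, the subunit of complex IV, gave 154, 112, 150.4 and 190.5 CPM in control replicates 1 to 4, 115, 90.01, 93.4 and 122 in obese replicates 1 to 4 and 118, 118 and 88.7 in the cocktail libraries. Obese replicates 1 and 4 lay above control replicate 2 (log2 fold change -0.53 ± 0.17, adjusted p = 0.0287), and the call ended without any 1 of control replicates 1, 3 and 4 and obese replicates 2 and 3 (adjusted p up to 0.091). Ndufa4l2, known as a hypoxia-induced gene, gave 6.95, 5.39, 6.52 and 7.38 CPM in control replicates 1 to 4, 4.57, 5.01, 3.34 and 4.91 in obese replicates 1 to 4 and 4.75, 4.96 and 4.12 in the cocktail libraries. Its obese libraries were all below the controls (log2 fold change -0.56 ± 0.16, adjusted p = 0.0194), and the call ended without control replicate 4 (adjusted p = 0.0557).

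Beside the nuclear genes, the 7 complex I subunits of the mitochondrial chromosome, which form the core of the membrane arm, all passed downwards in obese libraries (median -0.80), with the reserve that nuclear copies of these genes make their counts uncertain. Of these mt-Nd5 gave 53998, 38503, 44851 and 56607 CPM in control replicates 1 to 4, 23755, 20713, 21219 and 28692 in obese replicates 1 to 4 and 25038, 23268 and 17491 in the cocktail libraries, with the groups apart (log2 fold change -1.04 ± 0.19, adjusted p = 0.00191). Among 11 tested assembly genes with other names, 5 passed downwards and 1 upwards (median -0.46). Tmem70, which also serves ATP synthase, had means of 29.8 ± 7.14 CPM in control and 15.5 ± 3.32 in obese libraries (log2 fold change -0.94 ± 0.18, adjusted p = 0.00231). Acad9, the partner of Ndufaf1, had 31.7 ± 2.99 and 23.0 ± 1.38 (log2 fold change -0.46 ± 0.093, adjusted p = 0.00311). The gene that passed upwards was Dmac2 (log2 fold change 0.34 ± 0.11, adjusted p = 0.0405), named after its values were seen. The fall was not confined to complex I: 5 of 8 complex II genes (median -0.72) and 32 of 38 nuclear subunits of complexes III, IV and V (median -0.70) passed downwards, 0 upwards. Of 11 regulators of respiratory chain genes, 5 passed downwards and 0 upwards (median -0.11). Gabpa, an ETS-family factor, had 45.5 ± 1.96 CPM in control and 32.0 ± 2.10 in obese libraries (log2 fold change -0.51 ± 0.084, adjusted p = 0.00110). Tfam, which packages and transcribes mitochondrial DNA, had 17.0 ± 3.33 and 9.16 ± 1.42 (log2 fold change -0.89 ± 0.15, adjusted p = 0.00125).

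Promoter sequences were examined because the members moved together. RefSeq windows of build GRCm38.p6, from 250 bases before to 50 after the gene start, were matched by symbol for 40 of 46 members, and letters known to be bound by regulators of respiratory genes were searched on both strands. AAGATGGC, bound by YY1, occurred in 8 of 40 members, 20%, and in 3.19% of 27025 genes with a window. Among the 17492 protein-coding genes with a window the share was 3.57%. The 8 stretches are shown 5′ to 3′ on the gene's strand, with the letters searched in capitals.
Ndufa3: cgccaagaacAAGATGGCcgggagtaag
Ndufa9: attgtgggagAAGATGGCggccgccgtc
Ndufaf8: ggcagggcccAAGATGGCggcgccctcg
Ndufb8: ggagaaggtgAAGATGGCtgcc
Ndufc1: cctgcggaacAAGATGGCgccgtccgta
Ndufs4: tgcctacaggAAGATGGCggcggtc
Ndufs6: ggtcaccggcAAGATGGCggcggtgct
Ndufs7: ggccgaggccAAGATGGCggcgctggcg
In all 8 the letters lay in the same orientation, with the first base 11 to 39 bases after the gene start. The ATG inside them was an annotated start codon in 7 of 8, Ndufaf8 being the exception. It was one in 32.5% of the 536 genes, of any gene type, with these letters in that orientation. The coordinates are chr7:3617385-3617412, chr11:120098934-120098961 and chr10:80249463-80249490 on the plus strand for Ndufa3, Ndufaf8 and Ndufs7. On the minus strand they are chr6:126849098-126849125 for Ndufa9, chr19:44555393-44555414 for Ndufb8, chr3:51408916-51408943 for Ndufc1, chr13:114388045-114388069 for Ndufs4 and chr13:73328433-73328459 for Ndufs6. All 8 of these genes passed downwards in obese libraries, as did 23 of the 32 matched members without the letters. Yy1, named outside the rule of the 2 smallest p, was among the 5 of 11 regulators that passed downwards (log2 fold change -0.45 ± 0.10, edgeR adjusted p = 0.00435). A link between Yy1 and the level of these genes was not tested.

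GCGCATGCG, bound by NRF1, occurred in 4 of 40 members, 10%, in 1.95% of all genes with a window and in 2.61% of the protein-coding ones. The letters read nearly the same on both strands, so capitals can run 1 base beyond the motif.
Ndufa8: tcgctggagaCGCATGCGCagatggtacc
Ndufa11: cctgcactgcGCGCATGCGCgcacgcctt
Ndufaf4: ccagatgtctGCGCATGCGCctgtgcgga
Ndufaf5: agtcccgttgGCGCATGCGCctaatagaa
They lie at chr2:36049329-36049357 on the minus strand for Ndufa8, and on the plus strand at chr17:56717692-56717720 for Ndufa11, chr4:24897960-24897988 for Ndufaf4 and chr2:140170652-140170680 for Ndufaf5. Of these 4 genes Ndufa8 passed downwards in obese libraries and the other 3 did not. Nrf1 itself did not pass (log2 fold change 0.14 ± 0.11, edgeR adjusted p = 0.358). CCGGAAGT, bound by GABPA and other ETS factors, occurred in 1 member, Ndufs3 (2.5%, beside 4.31% of all and 5.69% of protein-coding genes). TGACCTTG, bound by oestrogen-related receptors, occurred in 1, Ndufs5 (2.5%, beside 1.76% and 1.56%). A match is a description of the letters in these windows only.

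The cocktail was not followed by a change in any member that passed the test. In cocktail against obese libraries 0 of 36 subunits and 0 of 8 assembly factors passed, as did 0 of all 23779 genes with edgeR, although 2425 genes had an unadjusted p under 0.05; DESeq2 passed 131 genes, none of them a member, and limma voom 1. The subunit values lay mostly above 0: 34 of 36 had a log2 fold change above 0, with a median of 0.18 beside -0.007 over all genes, and 0 of 36 had an unadjusted p under 0.05. With the intronic share as a covariate, 7 of 36 lay above 0 and the median was -0.091. The obese libraries enter this comparison and the one with controls, so directions in the 2 are not independent.

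Ndufa7, at 34.5 ± 7.72 CPM in obese and 46.9 ± 8.30 in cocktail libraries, had the smallest p of the subunits (log2 fold change 0.44 ± 0.21, unadjusted p = 0.0502, adjusted p = 0.490). Its values in cocktail replicates 1 and 2 exceeded all obese values, while replicate 3 did not. Ndufa12 (log2 fold change 0.30 ± 0.16, adjusted p = 0.542), Ndufb4 (log2 fold change 0.36 ± 0.21, adjusted p = 0.560), Ndufa13 (log2 fold change 0.28 ± 0.17, adjusted p = 0.573) and Ndufa2 (log2 fold change 0.29 ± 0.18, adjusted p = 0.584) had the next smallest, and Ndufs8 was next after Ndufa7 and Ndufb4 in fold change (log2 fold change 0.33 ± 0.21, adjusted p = 0.593). The lowest were Ndufa6 (log2 fold change -0.069 ± 0.14), Ndufb2 (log2 fold change -0.026 ± 0.14) and Ndufab1 (log2 fold change 0.033 ± 0.14). For 0 of 36 subunits did the cocktail and obese libraries stand apart, where 4.68% of all genes were higher and 5.45% lower in every cocktail library. Among the assembly factors, 3 of 8 lay above 0 (median -0.039). Ndufaf8 had 3.75 ± 0.408 CPM in obese and 5.57 ± 1.04 in cocktail libraries, and every cocktail value lay above every obese value (log2 fold change 0.57 ± 0.20, unadjusted p = 0.0145, adjusted p = 0.412). It was the member with the smallest p in this comparison, and it did not pass. The 7 mitochondrially encoded subunits all lay below 0 (median -0.15), and none passed.

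In cocktail against control libraries, 14 of 36 subunits and 1 of 8 assembly factors passed downwards, beside 8.39% of all genes, and 0 passed upwards, beside 7.43%. The subunit median was -0.54. Ndufs4 (log2 fold change -0.71 ± 0.16, adjusted p = 0.0144), Ndufa9 (log2 fold change -0.82 ± 0.20, adjusted p = 0.0167), Ndufb9 (log2 fold change -0.68 ± 0.17, adjusted p = 0.0204), Ndufa5 (log2 fold change -0.67 ± 0.18, adjusted p = 0.0243) and Ndufb6 (log2 fold change -0.84 ± 0.22, adjusted p = 0.0244) had the smallest p. By module, 6 of 10 genes of the N module, 3 of 6 of the Q module, 2 of 9 of the proximal and 3 of 11 of the distal membrane arm passed. Ndufa13, Ndufa11 and Ndufb2 lay nearest to or above 0, at -0.16, -0.16 and 0.027, and scaling by library totals alone put Ndufa13 and Ndufa11 at 0.27 and 0.28. The assembly factor that passed was Ndufaf2 (log2 fold change -0.72 ± 0.22, adjusted p = 0.0415). Ndufaf8 stood at 0.031 ± 0.20 against controls. All 7 mitochondrially encoded subunits passed downwards (median -0.94). The subunit count moved with single libraries. It was 0 without cocktail replicate 3, 2 without control replicate 4, 3 without control replicate 1 and 6 without control replicate 3. It was 7 and 8 without cocktail replicates 1 and 2, and 30 without control replicate 2. The share of all genes passing in either direction, 15.8% with all libraries, moved as well. It was 4.12% without cocktail replicate 3, 7.67%, 7.84% and 10.5% without control replicates 4, 1 and 3, and 19.7% without control replicate 2. Without cocktail replicates 1 and 2 it was 10.9% and 10.8%. In the covariate fit the subunit count was 0, and 2.14% of all genes passed in either direction. With obese replicate 3 and cocktail replicates 2 and 3 removed, 1 cocktail library remained and the subunit median was -0.41.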

How the data were processed

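RNA was extracted from whole hearts and sequenced as paired reads, per the labels. The authors' deposited table holds whole-number counts per Ensembl gene for 11 libraries, and the submitters' processing notes name cutadapt, HISAT2, StringTie and GRCm38. No source used here gives versions, the annotation, the use of strand, or whether the counts are counted reads or estimates. All 11 columns were used. GENCODE (GRCm38) supplied names and gene types for 55227 of 55487 identifiers; the other 260 held at most 0.0634% of counts. Genes passed edgeR's filterByExpr (minimum count 10, minimum total 15), which kept 23779. Counts were scaled by TMM and fitted in 1 model of 3 groups (edgeR 4.0.16, robust quasi-likelihood, R 4.3.3), with adjustment over all genes and a threshold of 0.05. The common BCV, the typical relative spread between replicates, was 0.259. Standard errors are on the log2 scale. Depth of 52.7 to 103.3 M counts leaves little counting error for members, so the number of libraries limits the precision.

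The members and lists were chosen with earlier results of these data known. Values in every library are given for core subunits (1 subunit counted in the totals is not reported here by name), Ndufaf genes, genes outside the complex, and, per comparison, the 5 subunits with the smallest p and the 3 with the largest and smallest fold change; of the other lists, the 2 genes with the smallest p were to be named. Alternatives were other scalings and filters, DESeq2 1.42.0, limma voom 3.58.1, a replicate block, the intronic share as covariate, length and GC trends removed, and leaving out libraries. Library measures were compared by exact permutation tests (scipy 1.17.1). No batch is given in the labels.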

Additional observations from a re-analysis of the deposited data

Results flagged for a closer look

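Among 70 groups of 4 libraries examined, 1 held a library far from the rest. Ndufaf6, an assembly factor, stood at 6.77 CPM in control replicate 2 and between 7.26 and 7.33 CPM in the other 3 control libraries; the gap of 0.884 of the group's range was above Dixon's 95% critical value for 4 values. About 1 in 20 groups passes that limit by chance. Control replicate 2 was also the lowest control library for all 36 subunits.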

How the results depend on the processing

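The subunit count in obese against control libraries (31) stayed between 24 and 33 in 13 alternatives and in 22 to 35 when 1 library was left out, but was 20 under scaling by library totals alone and 0 with the intronic share as a covariate. That scaling gave 9061 genes higher and 960 lower, against 3429 and 3737 under TMM, and upper-quartile scaling 4378 and 2926. The count of assembly factors (3) was 1 under upper-quartile scaling, protein-coding genes only, no low-count filter and a fit of the 2 groups. It was also 1 under totals alone, but there Ndufaf5 passed upwards (0.438) and 0 of the 3 downward calls held. It was 0 with the covariate or without the 3 libraries with the highest atrial markers, a choice made after seeing the data; leaving out 1 library gave 0 to 5. Cocktail against obese libraries gave 0 members in every alternative that kept more than 1 cocktail library. Against controls, the cocktail subunit count (14) was 2 under totals alone (1 higher and 1 lower) and 0 with the covariate. Leaving out 1 library gave 0 to 30. The assembly factor count against controls (1, downwards) was 1 upwards under totals alone. It was 0 under upper-quartile scaling, no filter, the replicate block and the covariate, and 2 with DESeq2 and with length and GC trends removed. It was 0 to 2 when 1 library was left out. Without those 3 libraries only cocktail replicate 1 remained in its group. The medians against controls were then -0.41 for subunits and -0.23 for assembly factors. Under totals alone the mean of the library subunit medians was -0.28 in obese (-0.71 under TMM) and -0.10 in cocktail libraries (-0.53). With the length of the principal transcript the median subunit level was 105.4 CPM per kb (62.0 with all exons). The cause of these changes was not tested.

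Direction was followed singly only for the genes chosen by the rule above, and these turned as follows. In obese against control libraries, totals alone put 5 of 36 subunits above 0, against 1 of 36 under TMM. Among the genes followed, totals alone gave 0.15 for Ndufaf1, 0.086 for Ndufaf3, 0.13 for Ndufaf4, 0.14 for Ndufaf6, 0.072 for Ndufaf7, 0.14 for Ndufa6 and 0.09 for Ndufab1. The covariate put 17 of 36 subunits above 0 and 19 below. Among the genes followed, it gave 0.054 for Ndufs8, 0.17 for Ndufa6, 0.15 for Ndufab1, 0.18 for Ndufa4 and 0.019 for Ndufa4l2. It also gave 0.54 for Ndufaf1, 0.33 for Ndufaf3, 0.36 for Ndufaf4 and 0.14 for Ndufaf8. Ndufaf5 gave -0.029 with RLE scaling and with DESeq2, -0.011 with TMMwsp, -0.006 without a filter, -0.057 without length and GC trends, -0.004 without the 3 atrial-high libraries, and -0.10 to 0.093 when 1 library was left out; Ndufb2 then ran from -0.031 to 0.14. In cocktail against obese libraries the covariate gave -0.003 for Ndufb4, -0.017 for Ndufa2 and -0.15 for Ndufab1, which gave -0.008 under upper-quartile scaling and -0.009 with protein-coding genes. Without the atrial-high libraries, which left 1 cocktail library, Ndufa6 gave 0.047 and Ndufb2 0.13, and Ndufb2 gave 0.034 without length and GC trends. Leaving out 1 library gave -0.15 to 0.029 for Ndufa6, -0.14 to 0.082 for Ndufb2 and -0.044 to 0.13 for Ndufab1. In cocktail against control libraries, totals alone gave 0.27 for Ndufa13 and 0.28 for Ndufa11, the covariate 0.15 and 0.27, and Ndufb2 ran from -0.093 to 0.13 when 1 library was left out.

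The labels give the groups the same replicate numbers. Same-numbered libraries deviated together with correlations from -0.23 to 0.40, and different-numbered ones from -0.41 to 0.19. Between obese and cocktail libraries the same-numbered values were 0.40, 0.069 and 0.34 for replicates 1 to 3. Whether the numbers pair the libraries was not tested. With the replicate block, 33 subunits and 3 assembly factors passed in obese against control libraries, beside 29.9% of all genes in either direction. In cocktail against control libraries 13 and 0 passed, beside 11.3% of all genes. In cocktail against obese libraries 0 members and 0 of all genes passed, and Ndufa6 and Ndufb2 turned to 0.005 and 0.045. In cocktail against obese libraries 6 of 8 assembly factors then lay above 0, against 3 without the block, and in cocktail against control 2 of 8, against 1.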
